A study of Mus musculus with 3 samples.

Results

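Interferon-stimulated genes (ISGs) are described here in single cells of the mouse retina. They were taken as a named list of 39 genes, out of 24071 genes with values, that covers IRF and STAT transcription factors, antiviral effectors, ubiquitin-system genes and interferon-inducible GTPases. All 39 had a row in each library. The study set 3 groups side by side at postnatal day 26: Tspan12 knockout (KO) mice given F4L5.13, Tspan12 KO mice without it, and wild-type (WT) mice. The treated animals received F4L5.13 into the peritoneum at 10 mg/kg on days 6, 9 and 12 and at 4 mg/kg every 3 days after that, per the labels' protocols. F4L5.13 is an antibody that activates the receptor pair FZD4 and LRP5, which TSPAN12 normally assists in endothelial cells. The strain label is Tspan12tm1.2Hjug in all 3 groups, WT included. The number of mice behind a library, and whether retinas were pooled, is not stated. The suspensions had been depleted of photoreceptors (anti-CD73) and dying cells (Annexin V) before 3′ tag libraries were made with the 10x v3 chemistry.

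Each group is 1 library without a replicate, so no test between groups was possible. Levels are counts per 1000000 reads of a cell class (CPM). The 95% intervals given for them, for CPM ratios and for shares of cells reflect counting alone, and the spread between animals is unknown.

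Interferons bind paired receptors at the cell surface and activate the kinases JAK1 and TYK2. The kinases phosphorylate STAT proteins, STAT2 among them, which join IRF9 in the complex ISGF3, and this complex binds the interferon-stimulated response element (ISRE) in front of ISGs. A different palindrome, the gamma-activated site, serves mainly the response to interferon gamma. The products degrade viral RNA, block translation or viral entry, tag proteins with ISG15, and amplify or shut off the response. Many tissues keep a low tonic level of these transcripts without infection. In the retina, Müller glia, astrocytes, microglia and vessels can all respond to interferon.

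The treated, KO and WT libraries held 9835, 10769 and 6092 barcodes, and 8215, 9357 and 5785 were kept. Median reads per barcode were 6588, 7351 and 14797. Kept barcodes occurred in more than 1 library in 22 cases for treated and KO, 12 for treated and WT, and 11 for KO and WT. Müller glia, the radial glia that span the retina, numbered 1244 treated, 1367 KO and 1695 WT cells, with medians of 23144.5, 26976 and 19413 reads. Their 12 markers summed to 39049, 43637 and 41880 CPM, and none was at 0. Tspan12 itself was read in Müller glia at 25.4 CPM in the treated library, 29.9 CPM in KO and 43.2 CPM in WT. The deleted exons are not stated, and reads from a 3′ tag that lies outside them would not check the genotype.

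The 2 DNA patterns named above were searched in front of the members, and 7 windows are shown for the genes on which the results turn. Of the 39 members, 34 matched a RefSeq promoter window on GRCm38.p6, which runs from 250 bases before to 50 bases after a transcription start. Ifi27, Rtp4, Usp18, Parp9 and Parp14 did not. The first 4 windows hold the ISRE core, GAAA followed by any 2 bases and GAAA again, on either strand, in capitals where it matched, overlapping matches included. They belong to 4 genes with large differences between the libraries.
Ifit1 (chr19:34640639-34640938, plus strand): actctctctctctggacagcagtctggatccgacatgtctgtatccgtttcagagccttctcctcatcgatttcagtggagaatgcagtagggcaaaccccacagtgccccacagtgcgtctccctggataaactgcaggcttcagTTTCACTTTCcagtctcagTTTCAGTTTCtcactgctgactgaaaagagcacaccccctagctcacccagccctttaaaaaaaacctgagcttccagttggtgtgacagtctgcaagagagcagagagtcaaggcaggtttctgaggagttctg
Isg15 (chr4:156200769-156201068, minus strand): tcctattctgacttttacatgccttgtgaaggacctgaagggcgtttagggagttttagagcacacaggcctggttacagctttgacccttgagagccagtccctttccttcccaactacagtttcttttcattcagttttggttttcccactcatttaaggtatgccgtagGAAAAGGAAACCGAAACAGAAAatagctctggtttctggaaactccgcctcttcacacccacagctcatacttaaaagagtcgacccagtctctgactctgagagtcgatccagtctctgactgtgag
Rsad2 (chr12:26456403-26456702, minus strand): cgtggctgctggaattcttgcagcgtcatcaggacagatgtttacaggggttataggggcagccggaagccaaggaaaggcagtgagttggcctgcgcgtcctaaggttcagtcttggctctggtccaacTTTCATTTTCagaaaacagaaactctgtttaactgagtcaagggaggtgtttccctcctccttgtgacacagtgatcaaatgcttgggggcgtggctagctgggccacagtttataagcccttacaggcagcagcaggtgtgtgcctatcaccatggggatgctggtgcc
Bst2 (chr8:71537423-71537722, minus strand): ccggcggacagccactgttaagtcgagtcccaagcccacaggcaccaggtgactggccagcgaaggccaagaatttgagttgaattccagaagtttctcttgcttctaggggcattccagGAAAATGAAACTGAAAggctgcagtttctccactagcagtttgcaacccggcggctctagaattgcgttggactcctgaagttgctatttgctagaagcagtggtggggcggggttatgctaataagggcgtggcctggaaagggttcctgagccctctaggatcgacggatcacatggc
The next 2 belong to members whose levels also differed, but these letters are not in their windows.
Oasl2 (chr5:114896684-114896983, plus strand): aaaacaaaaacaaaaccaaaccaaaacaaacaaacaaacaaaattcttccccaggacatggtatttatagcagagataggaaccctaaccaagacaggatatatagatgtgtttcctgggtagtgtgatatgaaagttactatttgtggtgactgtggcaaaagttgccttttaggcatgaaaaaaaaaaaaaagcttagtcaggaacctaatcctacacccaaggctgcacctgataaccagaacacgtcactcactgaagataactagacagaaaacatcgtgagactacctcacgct
Lgals3bp (chr11:118401910-118402209, minus strand): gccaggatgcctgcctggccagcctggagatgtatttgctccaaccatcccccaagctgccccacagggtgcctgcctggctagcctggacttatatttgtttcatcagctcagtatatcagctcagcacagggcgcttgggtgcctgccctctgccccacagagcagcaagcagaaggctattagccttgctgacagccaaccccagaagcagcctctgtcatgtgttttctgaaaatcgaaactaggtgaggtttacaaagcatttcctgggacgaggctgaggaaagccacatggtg
The last belongs to Irf1, the only member whose interval for treated over KO lay above 1 in Müller glia. Its capitals mark the gamma-activated pattern TTCNNNGAA.
Irf1 (chr11:53769764-53770063, plus strand): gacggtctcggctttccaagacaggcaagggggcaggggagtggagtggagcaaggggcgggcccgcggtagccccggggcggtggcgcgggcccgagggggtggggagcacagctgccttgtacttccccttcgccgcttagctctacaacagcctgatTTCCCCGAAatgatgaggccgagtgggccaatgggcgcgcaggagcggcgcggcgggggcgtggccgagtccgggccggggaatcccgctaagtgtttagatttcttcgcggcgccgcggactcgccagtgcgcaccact

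The ISRE core stood in the windows of 17 of the 34 members (50%), and in 3.99% of the 27025 genes in the table. Per window the shares were 41.9% of 43 member windows and 3.44% of all 32851 windows. In Isg15 the 3 overlapping matches began 78, 72 and 66 bases before the start. Ifit1 had matches at 104 and 85 bases, Bst2 at 130 and 124, and Rsad2 at 120. The palindrome TTCNNNGAA, which reads the same on both strands, was in the windows of 11 members (32.4%) and 9.55% of all genes. In the Irf1 window shown it began 90 bases before the start, and the other Irf1 window holds no match. The Bst2 window also holds 1 match, which begins 136 bases before the start and ends inside the capitals. Among members measured in Müller glia, the 16 with the ISRE core had a median log2 ratio of KO over WT of 1.08, and the 15 without it one of 0.73. The 16 include Ifi203, the highest at 7.42, which was read in KO Müller cells alone. Its difference is built into the filter for measured members. By the 2-fold rule given below, 7 of the 16 and 5 of the 15 were higher in KO. A match is a string of letters and no evidence of binding, and these medians were not tested against each other.

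In Müller glia, ISG levels were higher in the KO library than in WT across almost the whole list, and lower in the treated library than in KO. A member counted as measured with at least 10 molecule equivalents over the 3 libraries, a unit that discounts repeated reads. That held for 36 members, and Oas1a, Sp100 and Ifi44 were not measured. Ifi203 passed only through KO cells, so its difference is built into the filter. Of the 36, 34 were higher and 2 lower in KO than in WT, with a median log2 ratio of 0.82 (median bounds 0.58 to 1.09), beside −0.02 over all 18802 genes measured. Past 2-fold meant a ratio of 2 or more either way, 30 molecule equivalents in the higher library, and a bound beyond 1.5. By that rule 14 members (38.9%) were higher and 0 lower in KO, against a background of 1.89% of genes higher and 1.47% lower. The interval lay above 1 for 32 members and below 1 for 1 (Cmpk2). Most treated and WT Müller cells lay in one cluster and most KO cells in another, and values within clusters are given further on.

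Between the treated and KO libraries the direction was the opposite. There 31 members were lower and 5 higher, with a median log2 ratio of −0.71 (−0.95 to −0.40), beside 0.02 over all genes. Past 2-fold, 11 members were lower and 0 higher, where the background was 1.21% lower and 0.995% higher. The interval lay below 1 for 29 members and above 1 for Irf1. The treated and WT libraries were closest, with a median of 0.18 (−0.19 to 0.53) beside 0.00 over all genes, 24 members higher and 12 lower. The interval lay above 1 for 12 members and below 1 for 1 (Ifi27). Over all genes measured it lay above 1 for 11.9% and below 1 for 10.2%. Only Ifit1 and Rsad2 were past 2-fold higher in the treated library and none lower, where the background was 0.489% and 0.213%. The 3 comparisons share their libraries pairwise and are not independent of each other.

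**Figure D1:**
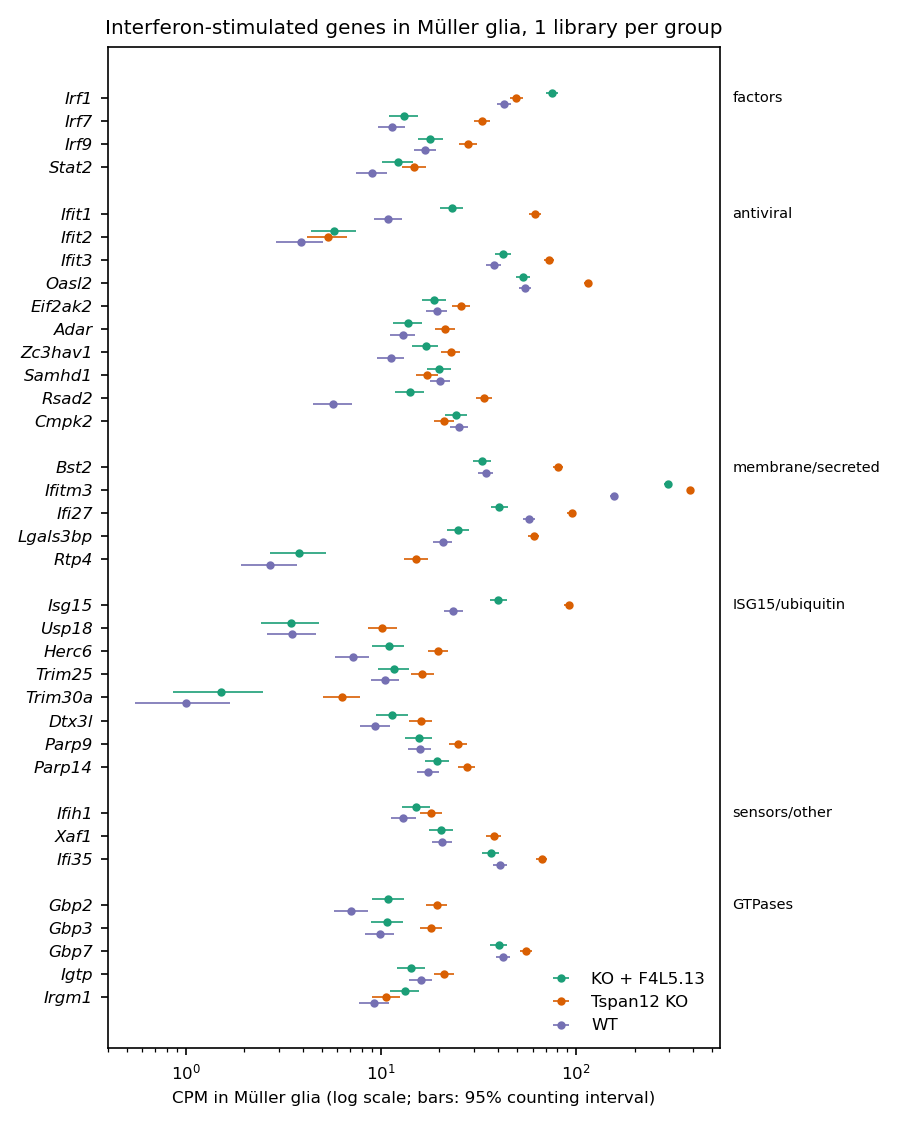
CPM in Müller glia (log axis) of 35 measured ISGs in the treated, KO and WT libraries, grouped by role; points are single libraries and bars the 95% counting interval. Ifi203 is not drawn, having reads in KO cells only. For most genes the KO point lies to the right of the other two, as for Oasl2 with 53.7, 115 and 55.0 CPM in the treated, KO and WT libraries, while Irf1 is highest in the treated library.

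The 4 transcription factors comprise IRF7, the amplifier of the type I response, IRF9 and STAT2, both parts of ISGF3, and IRF1, which interferon gamma induces strongly. Irf7 stood at 13.1 CPM (11.0 to 15.6) in treated cells, 33.1 CPM (30.1 to 36.4) in KO cells and 11.4 CPM (9.73 to 13.4) in WT. The KO interval overlaps neither of the others. The ratio was 2.9 (2.41 to 3.49) for KO over WT and 0.397 (0.324 to 0.483) for treated over KO. Irf7 shares 45 bases at its end with Phrf1, a gene on the opposite strand. Phrf1 had ratios of 1.15 (1.00 to 1.33) and 0.806 (0.689 to 0.942) in the same comparisons. Irf9 had the same order at 18.0 CPM in treated, 28.0 CPM in KO and 16.9 CPM in WT cells, below 2-fold. Stat2 stood at 12.3, 14.8 and 9.0 CPM in treated, KO and WT cells, and its treated and KO intervals overlap.

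Irf1 departed from the other factors. It stood at 75.7 CPM (70.4 to 81.2) in treated cells, 49.5 CPM (45.8 to 53.4) in KO cells and 42.7 CPM (39.4 to 46.3) in WT. The treated library was the highest, with a ratio of 1.53 (1.38 to 1.70) over KO and 1.77 (1.59 to 1.97) over WT, neither of them past 2-fold. Of the Irf1 values, 4.94% were not whole numbers, which marks reads divided between genes. The direction also differed between clusters. In the Müller cluster that held most treated and WT cells Irf1 stood at 59.6 CPM in treated and 89.9 CPM in KO cells, and in the clusters with rod and cone markers at 82.9 and 114 CPM in treated and 46.5 and 48.7 CPM in KO cells. In the cluster that held most KO cells it stood at 39.3 CPM (24.5 to 59.8) in treated and 47.3 CPM (42.0 to 53.0) in KO cells, so the treated level was above KO only in the clusters with photoreceptor markers among these 4.

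Effectors that act on viral RNA and translation were 11 members, 10 of them measured. Of these, 8 were higher in KO than in WT, 4 past 2-fold, and 7 were lower in the treated library than in KO, 3 past 2-fold. Ifit1, whose protein recognises the ends of viral RNA, stood at 23.1 CPM (20.2 to 26.3) in treated cells, 62.0 CPM (57.8 to 66.3) in KO cells and 10.9 CPM (9.28 to 12.8) in WT. All 3 intervals are apart, in the order KO, treated, WT. The ratio was 5.66 (4.76 to 6.77) for KO over WT, 0.373 (0.321 to 0.432) for treated over KO and 2.11 (1.71 to 2.61) for treated over WT. Its neighbours on chromosome 19 differed less. Ifit3 stood at 42.5, 72.9 and 38 CPM in treated, KO and WT cells, just short of 2-fold at 1.92 (1.72 to 2.14) for KO over WT. Ifit2, 7112 bases before Ifit3, stood at 5.78, 5.35 and 3.88 CPM with overlapping intervals in all 3 libraries.

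Rsad2 encodes viperin, a radical-SAM enzyme that makes a chain-terminating nucleotide. It stood at 14.1 CPM (11.9 to 16.6) in treated cells, 34.0 CPM (30.9 to 37.2) in KO cells and 5.69 CPM (4.51 to 7.09) in WT, in the same order as Ifit1. The ratio was 5.97 (4.69 to 7.67) for KO over WT, 0.414 (0.341 to 0.502) for treated over KO and 2.47 (1.87 to 3.30) for treated over WT. In each library the 5 highest Müller cells held 71.5% of its treated, 34.0% of its KO and 46.8% of its WT reads. Cmpk2, a mitochondrial nucleotide kinase gene that starts 12752 bases from the start of Rsad2 on the other strand, did not share this pattern. It stood at 24.4 CPM in treated, 21.2 CPM in KO and 25.3 CPM in WT cells, the one member whose KO over WT interval lay below 1 (0.839, 0.715 to 0.983).

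Oasl2, an OAS-like protein gene, stood at 53.7 CPM (49.2 to 58.4) in treated cells, 115 CPM (110 to 121) in KO cells and 55.0 CPM (51.2 to 59.0) in WT. The treated and WT intervals overlap and the KO interval is apart. The ratio was 2.10 (1.92 to 2.29) for KO over WT and 0.465 (0.421 to 0.513) for treated over KO. Zc3hav1, which encodes the zinc-finger antiviral protein ZAP, stood at 17.0, 22.8 and 11.3 CPM in treated, KO and WT cells. Its KO over WT ratio was 2.02 (1.66 to 2.47), and the treated level lay between the other two. The RNA-activated kinase gene Eif2ak2 (PKR) and the RNA editing gene Adar had KO over WT ratios of 1.33 (1.13 to 1.57) and 1.65 (1.36 to 1.99). For Adar 76.5% of values were not whole, so its reads were largely divided with another gene. Samhd1, a dNTP hydrolase gene, stood at 19.9, 17.3 and 20.2 CPM in treated, KO and WT cells, with overlapping intervals.

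All 5 membrane and secreted members were higher in KO than in WT and lower in treated than in KO, with 4 past 2-fold in each comparison. Bst2 encodes tetherin, which holds budding virus at the cell surface. It stood at 33.1 CPM (29.6 to 36.8) in treated cells, 81.0 CPM (76.2 to 85.9) in KO cells and 34.6 CPM (31.6 to 37.8) in WT. Treated and WT cells overlap, and KO cells stand apart with ratios of 2.34 (2.10 to 2.61) for KO over WT and 0.409 (0.360 to 0.463) for treated over KO. Lgals3bp, a secreted galectin-binding glycoprotein gene, stood at 25, 60.7 and 20.7 CPM in treated, KO and WT cells, with ratios of 2.93 (2.56 to 3.36) and 0.411 (0.355 to 0.474). Its reads were spread over cells: 5 cells held 7.35% of them in the treated library, 4.34% in KO and 7.36% in WT.

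Ifitm3, which encodes an inhibitor of viral membrane fusion, stood at 295 CPM (285 to 306) in treated cells, 384 CPM (373 to 394) in KO cells and 157 CPM (150 to 163) in WT. In contrast to Bst2, the treated level stayed nearer to KO, at 0.769 (0.735 to 0.805) of it and 1.89 (1.78 to 1.99) times WT. Ifi27, a mitochondrial ISG, stood at 40.5, 95.3 and 57.6 CPM in treated, KO and WT cells. It was the only member whose treated over WT interval lay below 1 (0.703, 0.623 to 0.793), and its ratio for treated over KO was 0.426 (0.380 to 0.476). Rtp4, a receptor-transporting protein gene, stood at 3.82 CPM (2.71 to 5.24) in treated cells, 15.2 CPM (13.2 to 17.4) in KO cells and 2.72 CPM (1.92 to 3.73) in WT. Its ratios were 5.60 (3.95 to 8.14) for KO over WT and 0.251 (0.173 to 0.356) for treated over KO.

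The ISG15 and ubiquitin group had 8 members, and each was higher in KO than in WT and lower in treated than in KO with an interval that left out 1. Of these, 4 were past 2-fold in the first comparison and 3 in the second. Isg15, the ubiquitin-like modifier itself, stood at 40.02 CPM (36.2 to 44.1) in treated cells, 91.9 CPM (86.8 to 97.1) in KO cells and 23.6 CPM (21.1 to 26.3) in WT. Its 3 intervals are apart, with ratios of 3.89 (3.45 to 4.41) for KO over WT and 0.436 (0.388 to 0.488) for treated over KO. Usp18, the protease that removes ISG15 and damps receptor signalling, stood at 3.48, 10.2 and 3.52 CPM in treated, KO and WT cells. The treated and WT levels overlap, and the ratios were 2.9 (2.08 to 4.10) and 0.341 (0.228 to 0.498). Herc6, the mouse ISG15 ligase gene, stood at 11.0, 19.7 and 7.19 CPM, with 2.74 (2.17 to 3.49) for KO over WT and 0.556 (0.441 to 0.697) for treated over KO. Trim30a had few reads, at 1.52, 6.35 and 1.01 CPM in treated, KO and WT cells, and the highest KO over WT ratio among members with reads in all libraries, 6.30 (3.56 to 12), with 0.240 (0.129 to 0.416) for treated over KO. The E3 ligase gene Trim25 had the lowest KO over WT ratio of the group, 1.56 (1.26 to 1.93). Dtx3l and Parp9, whose products form a complex, had 1.71 and 1.58, and the 2 genes share 682 bases on opposite strands.

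The sensor and nuclear-body group had 6 members, 4 of them measured, and none was past 2-fold. Xaf1, a pro-apoptotic ISG, stood at 20.4, 38 and 20.7 CPM in treated, KO and WT cells, with the highest ratio of the group apart from Ifi203 at 1.83 (1.58 to 2.12). Ifi35 stood at 36.6 CPM in treated, 66.8 CPM in KO and 40.7 CPM in WT cells. Ifih1, which encodes the RNA sensor MDA5, had the lowest ratio of KO over WT, 1.39 (1.14 to 1.69). Ifi203 was read in KO Müller cells alone, at 2.20 CPM, and 5 cells held 88.2% of its reads. Its span shares 22085 bases with the related gene Mndal on the same strand, so its counts are uncertain.

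Among the 5 GTPase members, which attack membranes around intracellular pathogens and respond mainly to interferon gamma, 1 was past 2-fold. Gbp2 stood at 10.9, 19.3 and 7.06 CPM in treated, KO and WT cells, with 2.74 (2.16 to 3.49) for KO over WT and 0.565 (0.448 to 0.709) for treated over KO. Its neighbours Gbp3 and Gbp7 had KO over WT ratios of 1.82 (1.47 to 2.26) and 1.32 (1.18 to 1.47). Irgm1 was the lowest of the group at 1.15 (0.902 to 1.47), with 13.3 CPM in treated, 10.6 CPM in KO and 9.24 CPM in WT cells. The group median log2 ratio of KO over WT was 0.40, beside 1.29 for the membrane and secreted group and 1.11 for the ISG15 group, a difference between groups that was not tested.

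**Figure D2:**
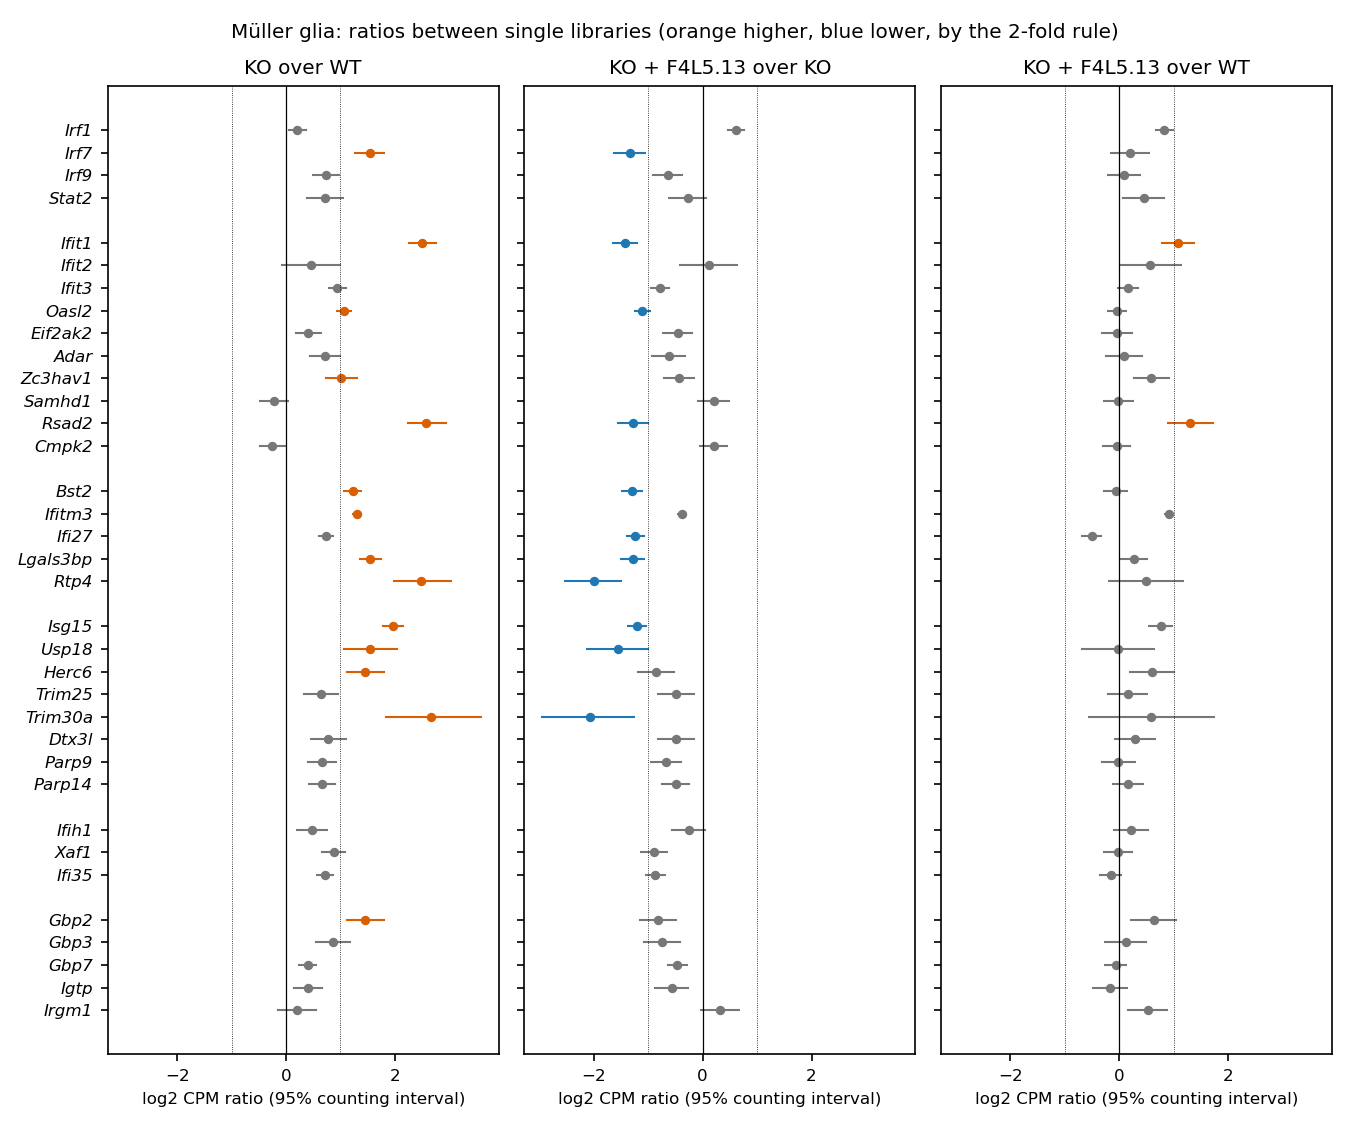
Log2 CPM ratios with 95% counting intervals for the same 35 members in Müller glia, 1 panel per comparison; orange and blue mark members past 2-fold higher and lower. In the KO over WT panel 14 members are orange, in the treated over KO panel 11 are blue, and in the treated over WT panel 2 are orange.

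Reads of some members came from few cells. In the treated library 1 Müller cell held 36.7% of the Ifit1 reads and 43.5% of the Rsad2 reads. The 5 highest cells held 52.8% of Ifit1 reads in treated, 21.8% in KO and 44.2% in WT cells. For Isg15 the shares were 25.8%, 13.1% and 23.0%, and for Oasl2 7.76%, 5.17% and 6.49%. Oasl2, Lgals3bp and Ifi35 were thus spread over the class, and Ifit1 and Rsad2 were not. The treated over WT differences of Ifit1 and Rsad2 depended on such cells, and no member was past 2-fold in that comparison once the 5 highest cells of each gene were left out.

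**Figure D3:**
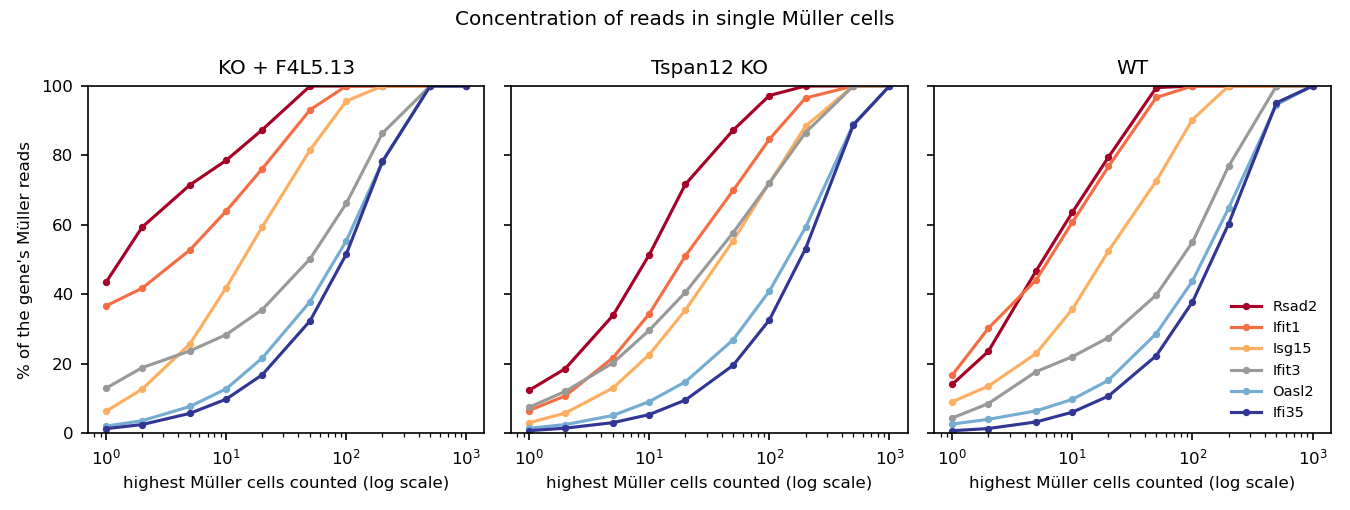
Percent of a gene's Müller reads held by its highest cells, counted from 1 to 1000 cells on a log axis, in the treated, KO and WT libraries. In the treated library the curves of Rsad2 and Ifit1 start highest, with 43.5% and 36.7% of reads in 1 cell, and in each library those of Oasl2 and Ifi35 lie lowest.

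Cells were also counted by how many members they held after each was thinned to 10000 reads, which left out 130 treated, 116 KO and 39 WT Müller cells. The median was 4 members per cell in the treated library, 6 in KO and 3 in WT, against 5, 9 and 5 unthinned. Cells with 10 or more members made up 4.58% (3.43 to 5.98) of treated, 15.4% (13.5 to 17.6) of KO and 2.42% (1.73 to 3.27) of WT Müller cells. The 3 intervals are apart, with the KO share highest and the WT share lowest. In cone bipolar cells, with medians of 13620, 12863 and 11612.5 reads, the median was 1 member in each library and no cell held 10. Bst2 was read in 15.2% of treated, 33.0% of KO and 14.1% of WT thinned Müller cells, and in 0.160%, 0.511% and 0.521% of thinned cone bipolar cells. Oasl2 was read in 25.9%, 46.1% and 26.8% of thinned treated, KO and WT Müller cells.

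A small set of cells held reads of Ifit1, Ifit3, Isg15 and Rsad2 together. These 4 genes were chosen after their values were seen. The set comprised 13 of 1244 treated Müller cells (1.05%, 0.558 to 1.78), 48 of 1367 KO cells (3.51%, 2.60 to 4.63) and 7 of 1695 WT cells (0.413%, 0.166 to 0.849). Cells of the set were deeper, with medians of 30762 reads in treated, 27707.5 in KO and 28579 in WT cells. The remaining cells had medians of 23026, 26956 and 19399 reads. After thinning, 0.449%, 1.60% and 0.181% of treated, KO and WT cells remained in the set. The other 35 members summed to 3326 CPM in these cells and 859 CPM in the remaining cells of the treated library, 3842 and 1255 CPM in KO, and 2620 and 711 CPM in WT. In KO cells of the set, Rtp4 was 10.5-fold higher (7.69 to 14.2) than in the remaining Müller cells, Cmpk2 6.93-fold (5.18 to 9.16) and Irf1 1.17-fold (0.792 to 1.66). In treated and WT cells of the set, however, Irf1 was 2.77-fold (1.95 to 3.83) and 2.48-fold (1.21 to 4.53) higher. Cmpk2 was thus higher in KO cells of the set, though it was not higher in the KO library. It was also higher in treated cells of the set (4.42-fold, 2.63 to 7.04). In WT cells of the set it stood at 7.24 CPM, against 25.4 CPM in the remaining cells (ratio 0.285, 0.0021 to 2.02). The Müller gene Rlbp1 was lower in the set, at 2448, 2868 and 2921 CPM in its treated, KO and WT cells and 3130, 3281 and 3935 CPM in the remaining cells. The glial filament gene Gfap was higher in the set, at 188, 335 and 224 CPM in its treated, KO and WT cells and 61.7, 248 and 15.0 CPM in the remaining cells. Their part in the result was not tested. Cells with reads of all 4 genes were a larger share of astrocytes and endothelial cells, with 3 of 25 treated, 8 of 29 KO and 5 of 52 WT astrocytes, 11 of 37 treated and 59 of 119 WT endothelial cells. In microglia they were 0 of 32 treated, 3 of 83 KO and 0 of 14 WT cells. Astrocytes and endothelial cells were deeper than Müller glia, and their shares were not thinned. Median reads were 66610 in treated, 58449 in KO and 40199.5 in WT astrocytes. Treated and WT endothelial cells had medians of 52575 and 62819 reads. No rod, cone, bipolar, amacrine or horizontal cell held all 4, but these were shallower than Müller cells apart from the horizontal cells. In cone bipolar cells, the counts of 0 of 1546 treated, 1203 KO and 2020 WT cells allow shares of cells with such reads of up to 0.194%, 0.249% and 0.149%. Without the Müller cells of the set the KO over WT median log2 ratio in Müller glia was 0.69. There 12 members were past 2-fold, with no share over all genes given beside them.

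Müller cells fell into 5 clusters, built without the 39 members and the other interferon genes, and the libraries filled them unequally. Cluster 1 held 630 treated, 91 KO and 1263 WT cells, and cluster 6, led by the hypoxia genes Ndufa4l2 and Adm, held 74, 690 and 14. Within cluster 1 the members summed to 963 CPM in treated, 1586 CPM in KO and 777 CPM in WT cells. In cluster 4, with 5 rod markers and the most even filling (340, 394 and 333 cells), the sums were 1095, 1502 and 879 CPM, and in cluster 15, with 6 cone markers, 1044, 1471 and 723 CPM. KO was the highest library in each of these. In cluster 6 the treated and KO sums were 1136 and 1772 CPM, and the 14 WT cells had 1527 CPM (1300 to 1783). The median log2 ratio of KO over WT was 0.97 in cluster 1, 0.70 in cluster 4 and 1.09 in cluster 15, and that of treated over KO was −0.80, −0.40, −0.59 and, in cluster 6, −0.83. In the KO library, 32 of 36 members were higher in cluster 6 than in cluster 4, with a median log2 difference of 0.29. Against cluster 1 of that library, 21 were higher and 15 lower in cluster 6, with a median of 0.07. In the treated library the median for cluster 6 was −0.11 against cluster 1 and −0.34 against cluster 4. Within cluster 4 alone, 7 members were past 2-fold higher in KO than in WT and 5 lower in treated than in KO. The share over all genes is not given within this cluster, so these counts have no background.

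**Figure D4:**
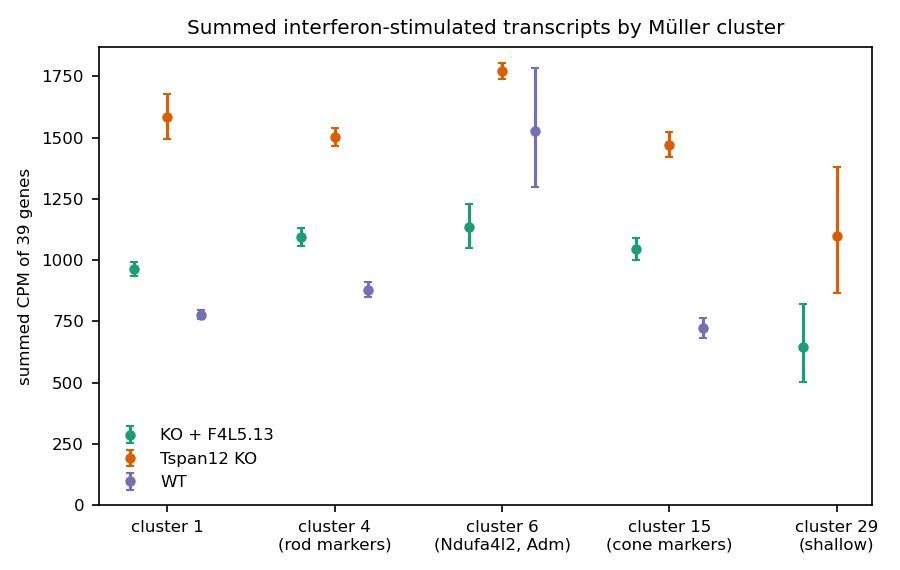
Summed CPM of the 39 members in each Müller cluster (linear axis from 0) for the treated, KO and WT libraries, with 95% counting intervals; library and cluster combinations under 10 cells are not drawn. In cluster 1 treated cells sit at 963 CPM, KO cells at 1586 CPM and WT cells at 777 CPM, and the KO point is the highest drawn in each cluster, although in cluster 6 the interval of the 14 WT cells overlaps it.

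The 12 microglial markers summed to 26.3 CPM in treated, 23.3 CPM in KO and 20.6 CPM in WT Müller glia, with 0, 0 and 2 at 0, against 43283, 51865 and 44406 CPM in the microglia themselves. Haemoglobin and other erythroid markers did differ, at 537 CPM in treated, 0.956 CPM in KO and 305 CPM in WT cells. Rod markers summed to 12492, 10666 and 13209 CPM. The part of these markers in the ISG differences was not tested.

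Glial and vascular classes carried higher summed levels than neurons in every library. The members summed to 1026 CPM (1006 to 1046) in treated, 1623 CPM (1602 to 1645) in KO cells and 802 CPM (788 to 817) in WT Müller glia. Ifitm3 was the largest part of these sums, which without it were 731, 1239 and 646 CPM. In astrocytes, with 25 treated, 29 KO and 52 WT cells, the sums were 2375, 3020 and 1349 CPM. Endothelial cells had 4650 CPM in 37 treated and 4984 CPM in 119 WT cells, and only 1 KO cell was found. The larger of their clusters also carried 9 mural markers, and the smaller was led in part by the haemoglobin gene Hbb-bs. In neurons the sums lay between 70.5 and 200.5 CPM in all libraries. In WT, 33 of 39 members were highest in endothelial cells, and in the treated library 27. Because only 1 endothelial cell came from KO, the KO retina has no level for this class, and whether its vessels share the Müller difference could not be measured.

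**Figure D5:**
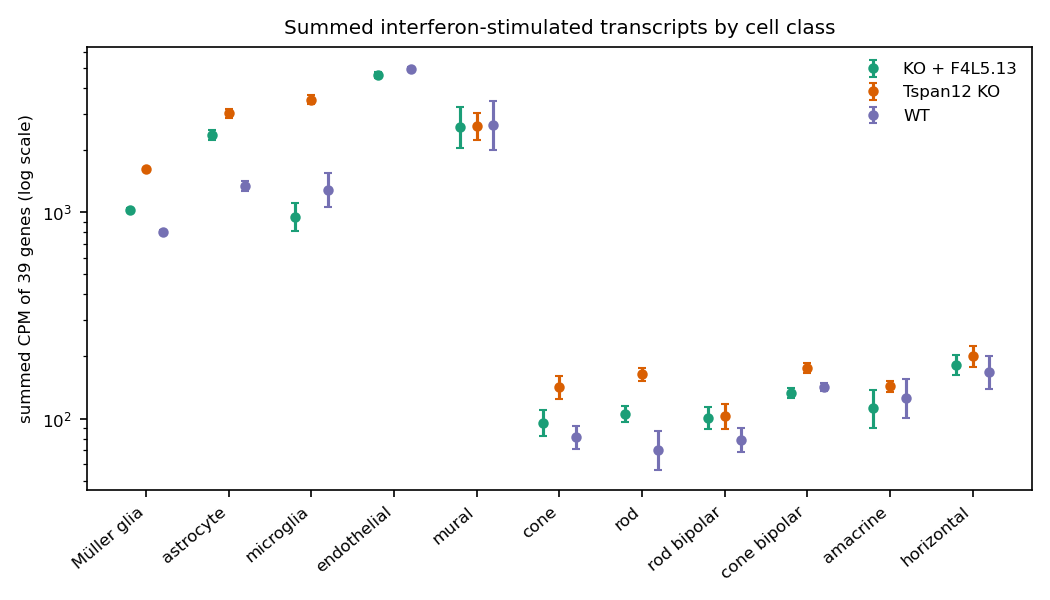
Summed CPM of the 39 members by cell class (log axis) in the treated, KO and WT libraries, with 95% counting intervals; library and class combinations under 5 cells are not drawn. Glia and vascular classes lie near or above 1000 CPM and neurons between 70.5 and 200.5 CPM.

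Microglia were too few to compare (32 treated, 83 KO and 14 WT cells), and their levels are given only as such. The sums were 954 CPM (814 to 1113) in treated, 3526 CPM (3362 to 3695) in KO cells and 1291 CPM (1065 to 1552) in WT cells. Ifitm3 stood at 102, 808 and 37.0 CPM, Bst2 at 212, 712 and 132 CPM, and Isg15 at 12.8, 176 and 53.5 CPM in treated, KO and WT microglia. Oasl2 was listed at 0 in treated, 83.8 CPM in KO and 37.0 CPM in WT microglia. These 4 genes were chosen after their values were seen, and the KO level is the highest in each. Over the 30 members measured in microglia, 21 were higher and 9 lower in KO than in WT, where 48.2% of all genes were higher. In KO microglia 28 members reached 10 molecule equivalents, in treated 6 and in WT 2. Most members thus passed the filter on KO reads alone, so this count is in part built into the filter. Among those lower was Irf1, at 52.1 CPM in KO and 90.5 CPM in WT microglia. Astrocytes, with few cells, had Ifitm3 at 928, 1248 and 379 CPM and Irf1 at 113, 118 and 38.7 CPM in treated, KO and WT cells.

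Among neurons, Irf7 was past 2-fold in photoreceptors. In cones it stood at 3.35 CPM (1.33 to 6.94) in treated, 33.8 CPM (25.4 to 43.9) in KO cells and 5.19 CPM (2.94 to 8.49) in WT cells. Reads were found in 9 of 519 treated cones (1.73%, 0.796 to 3.27), 54 of 446 KO cones (12.1%, 9.23 to 15.5) and 22 of 665 WT cones, at medians of 13040, 10906 and 12029 reads per cell. The ratio was 6.50 (3.65 to 12.3) for KO over WT and 0.0992 (0.0377 to 0.220) for treated over KO. Of 12 members measured in cones, Irf7 alone was past 2-fold higher in KO than in WT, where the background was 0.308%, and past 2-fold lower in treated than in KO, where it was 0.413%. The other 38 members together had ratios of 1.43 (1.17 to 1.75) and 0.850 (0.689 to 1.05) in cones. Phrf1, the overlapping gene on the other strand, had 1.19 (0.842 to 1.68) and 0.790 (0.538 to 1.16). In rod bipolar cells of similar depth Irf7 was read in 3 of 708 treated, 2 of 581 KO and 3 of 689 WT cells. In amacrine cells the treated library was the highest, at 12.4 CPM in treated, 3.79 CPM in KO and 1.05 CPM in WT cells. The ratio of treated over KO was 3.27 (1.41 to 6.98), short of the bound for 2-fold, and 5 cells held 90.6% of the treated reads.

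In rods Irf7 was also highest in KO, at 23.6 CPM (19.2 to 28.6) in treated, 55.1 CPM (48.8 to 62.0) in KO cells and 15.0 CPM (9.02 to 23.5) in WT cells. Treated and KO rods are alike in depth, with medians of 2966 and 2979 reads, and the ratio was 0.428 (0.338 to 0.538), where the background was 1.55% lower. WT rods were few (216) and deeper, with a median of 13885.5 reads, and the median log2 ratio of all genes for KO over WT was 0.57 in rods. There 9.28% of genes were past 2-fold higher in KO, so the KO over WT ratio of 3.67 (2.30 to 6.20) carries that shift. In the largest rod cluster Irf7 stood at 23.7, 56.6 and 55.1 CPM in 2953 treated, 3382 KO and 51 WT cells, with reads in 7 of the WT cells, so KO and WT were close there. Bst2 was also past 2-fold in rods, on 104 KO and 2 WT reads.

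Cone bipolar cells had 28 measured members, and none was past 2-fold between KO and WT or between treated and KO, where the backgrounds were 1.32% higher and 1.38% lower. Their median log2 ratios were 0.45 for KO over WT, with 22 members higher, and −0.43 for treated over KO, with 23 lower. The median bounds of both run across 0, but these are medians over single genes. The 38 members other than Irf7 together had ratios of 1.23 (1.14 to 1.33) and 0.758 (0.699 to 0.821), with intervals that left out 1. Ifit3 was past 2-fold lower in treated than in WT cone bipolar cells, at 5.00 CPM in treated, 5.28 CPM in KO and 11.2 CPM in WT cells (treated over WT 0.447, 0.311 to 0.632), where the background was 0.212%. In rod bipolar cells 10 members were measured, with none past 2-fold higher in KO than in WT (background 0.743%) or lower in treated than in KO (0.715%). In amacrine cells 19 were measured, again with none, beside backgrounds of 0.447% and 0.51%.

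Other genes of the interferon pathway were read from lists chosen with earlier results of these data known. None of 10 interferon ligand genes had a row in the tables. Of 40 other ISGs, 28 were measured in Müller glia, and 26 were higher in KO than in WT, 9 of them past 2-fold, and 23 lower in treated than in KO, 3 past 2-fold. Their median log2 ratio of KO over WT was 0.82, the same to 2 decimals as that of the members. Of those past 2-fold, the largest ratios were those of Isg20, an exonuclease gene (4.95, 2.38 to 11.5), Gbp9 (4.38, 2.51 to 8.11) and the chemokine gene Cxcl10 (3.72, 3.12 to 4.46). Next came Ube2l6, the conjugating enzyme for ISG15, at 17.5 CPM in treated, 33.7 CPM in KO and 11.4 CPM in WT cells (2.97, 2.47 to 3.58). Mx2 (2.66), the helicase-family gene Ddx60 (2.65) and Parp10 (2.55) followed. Cxcl10 stood at 16.5, 42.4 and 11.4 CPM in treated, KO and WT cells, with reads in 63 KO cells.

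Receptor and kinase genes did not share the pattern. Of 11 measured genes for receptors, kinases and STATs, 7 were higher and 4 lower in KO than in WT, and only Stat3 was past 2-fold (2.40, 2.19 to 2.62). Ifnar1 stood at 21.1, 18.6 and 17.1 CPM and Ifnar2 at 49.1, 46.9 and 54.1 CPM in treated, KO and WT cells. Among 11 measured sensing genes, the RIG-I-like receptor genes Ddx58 and Dhx58 were past 2-fold higher in KO than in WT, at 2.08 (1.69 to 2.58) and 2.68 (1.64 to 4.49). Stat3, the receptor genes, Ddx58, Irf3 and Socs3 are outside the 8 largest ratios of these lists and were chosen after their values were seen. Irf3, which acts downstream of the RIG-I-like receptors, had 1.07 (0.967 to 1.19). Of 5 measured inhibitors none was past 2-fold in that comparison. Socs3, which blocks JAK kinases, stood at 1042 CPM in treated, 504 CPM in KO and 561 CPM in WT cells, with a treated over KO ratio of 2.07 (2.01 to 2.13). Socs3 and Irf1 thus were both highest in the treated library, unlike the ISG list as a whole.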

How the data were processed

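The authors deposited 1 table of estimated counts per gene and cell barcode for each library. The submitters' processing notes name Partek 9.0 and mm10 without a step; the aligner, the annotation, strand handling and whether reads were collapsed to molecules are not given in the sources used here. Between 2.33% and 2.39% of nonzero values were not whole (tolerance 0.001), and values were rounded. Only 48.3% to 54.8% of small values in rarely detected genes were 1, so values were treated as reads and divided by 3.20, 2.87 and 2.77 (treated, KO, WT) into molecule equivalents for intervals and minimums. Total reads were 129812902 in the treated, 140445479 in the KO and 118672560 in the WT library. Counting intervals cover no repeated amplification beyond this divisor.

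Barcodes with at least 500 genes and at most 20% mitochondrial reads were kept, and 702 treated, 882 KO and 296 WT barcodes with most simulated doublets among their neighbours were removed, a number set by the barcodes loaded. The 3 libraries were clustered together (scanpy 1.11.5, Leiden at resolution 1, 2000 variable genes, 40 components) without batch correction. Interferon genes, 13 of which would have qualified, were kept out of the variable genes. A class name needed 3 markers at 2-fold in 20% of cells. Reads were summed per library and class, with exact Poisson, conditional binomial and Clopper-Pearson 95% intervals (scipy 1.17.1); a class needed 50 cells in both libraries to be compared. Every member past 2-fold in Müller glia was named, others as extremes of their role group, up to 6 in other classes and the 8 other pathway genes with the largest ratios past 2-fold, beside 6 named after their values were seen. The members and lists were chosen with earlier results of these data known. Coordinates are GRCm38, and promoter sequences are from RefSeq (GRCm38.p6). The code was tested on simulated data. Alternatives covered doublets, minimums, scaling, rounding, thinning, weighting, high cells and clusters. One gene of the pathway lists is not reported here.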

Additional observations from a re-analysis of the deposited data

How the results depend on the processing

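In Müller glia the median log2 ratio of the members kept its sign under every alternative run, at 0.69 to 0.93 for KO over WT, −0.89 to −0.40 for treated over KO and 0.09 to 0.27 for treated over WT. Counts past 2-fold ranged from 7 to 16 (14 as reported), 5 to 15 (11) and 0 to 2 (2). In the most evenly shared Müller cluster alone, with fewer cells, 7 members were past 2-fold for KO over WT and 5 for treated over KO, whose median was −0.40. No share over all genes is given for this or the other alternatives, so their counts have no background. The treated over WT count was 1 with doublets left in and 1 without the clusters carrying photoreceptor markers. It was 0 with every cell weighted equally, 0 with each gene's 5 highest cells left out, and 0 without the cells holding reads of Ifit1, Ifit3, Isg15 and Rsad2, an alternative chosen after seeing the data. Under that last one Rsad2 was lower in treated than in WT cells, at −0.31 on the log2 scale (−0.98 to 0.32), where it had been 1.30; that alternative removes cells picked for holding Rsad2 reads. Of 351 values of named members under alternatives, 49 left the interval reported and 1 changed sign. Median-of-ratios scaling moved all log2 ratios by 0.02 at most. No paired analysis was possible because each group has 1 library, so the replicate number 1 in each label pairs nothing. Depth limits Trim30a, Usp18, Rtp4 and Ifit2 most, and in neurons most members.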
